A study of Homo sapiens with 8 samples.

Results

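Clone H and clone M, the 2 control clones of a study of DJ-1 silencing, were compared with each other. Both derive from SH-SY5Y cells and carry a stably transfected scrambled control construct, and the arrays were chosen by their titles: 4 of the 8 arrays of the series, 2 for each clone, paired by the replicate numbers 1 and 2. SH-SY5Y is an established neuroblastoma line of human origin, with the traits of immature sympathetic neurons. The other 4 arrays were from clones B and G, in which a stably transfected RNAi construct targeted DJ-1, the product of PARK7, and they were used to place the control clones. The study compared silenced with control cells, and its title concerns RET, the receptor that signals for GDNF. RNA abundance was measured on Affymetrix arrays and is given as a log2 signal per probe set, on which a difference of 1 is 2-fold. Each group is 1 clone, so a difference here is between 2 clones of one construct. Nothing in the labels tells if the 2 arrays of a clone came from separate cultures, so the p-values measure only how far arrays spread, which may be technical.

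Neuroblastoma cells are known to occur in an adrenergic, neuron-like state and in a mesenchymal state. The adrenergic state carries sympathetic transcription factors, catecholamine enzymes and synaptic proteins. The mesenchymal state carries matrix, adhesion and contractile proteins under factors such as SNAI2, SOX9, YAP1 and the TGF-beta pathway, and cells of one line can pass between the states. In bulk RNA, fewer cells of a state and less RNA of its genes per cell cannot be told apart.

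PARK7 was at 13.11 and 13.14 in clone H and at 13.11 and 12.95 in clone M, against 10.05 to 10.45 in the knockdown arrays. The H minus M difference was 0.10 on the log2 scale (SE 0.09, limma adjusted p = 0.571), so both control labels fitted the targeted gene. Of the sympathetic identity genes, the factors PHOX2A and GATA3 were bright in every array, while TH, an enzyme gene of catecholamine synthesis, was dim. PHOX2A, a master factor of noradrenergic neurons, lay between 12.94 and 13.37 in the 8 arrays, and GATA3, a further sympathetic factor, between 12.80 and 13.28. RET was at 12.20 and 12.44 in clone H and at 12.47 and 12.87 in clone M, and did not pass the test (difference -0.35, adjusted p = 0.358). The array medians were 8.03 to 8.08. The 3' minus 5' signal of ACTB, a measure of RNA integrity, was 0.10 and 0.11 in clone M, 0.30 and 0.19 in clone H and 0.24 to 0.46 in the knockdown clones; its part in the differences below was not tested.

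In the fit of all 8 arrays 10 of 33 TGF-beta and BMP pathway genes were called lower in clone H than in clone M. So were 11 of 37 proteoglycans and matrix glycoproteins and 4 of 29 collagen and laminin chains. Of 27 synaptic vesicle genes 12 were called higher. With no replicate block these counts were 1, 3, 1 and 2. Of 300 measured genes on mesenchymal lists, which include pathway and junction genes, 60 were called lower in clone H and 4 higher. Of all genes 3.90% were called lower and 3.29% higher. Of 288 on neuronal lists 45 were higher and 12 lower. The median difference was 0.05 over the neuronal and -0.17 over the mesenchymal genes. In the fit with no replicate block 20 of the mesenchymal genes were lower and 1 higher, and 11 of the neuronal genes were higher and 5 lower, against 0.928% of all genes lower and 0.242% higher. By the measured signals MAB21L2, GJA1 and VCAN were 23.2-fold, 15.7-fold and 11.5-fold lower in clone H, and POU4F2 was 7.18-fold higher. Clone H was at 4.57 to 5.29 for MAB21L2 and GJA1, a range where signal and background cannot be separated, so these folds are not exact ratios of RNA. Of the 312 probe sets called with a difference of 2-fold or more, 293 had both knockdown clones nearer to clone H than to clone M. Over all 22215 probe sets 12748 did, and 4939 had both nearer to clone M. Clones H and M chose the 312 and enter the placing, so these counts are descriptions. HSD17B12, 31.3-fold lower in clone H than in clone M, was among the 9 of the 312 with both nearer to clone M.

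The first question was how far apart the control clones lay. Of 22215 probe sets tested, 1538 (6.92%) passed a Benjamini-Hochberg adjusted p of 0.05 in limma. Of these, 708 (3.19%) were higher in clone H and 830 (3.74%) were lower. A difference of at least 2-fold was called for 312 probe sets (1.40%), and here the directions were unequal: 47 were higher in clone H, from 35 genes, and 265 were lower, from 181 genes. At 4-fold, 58 called probe sets of 40 genes were lower in clone H, and only that of POU4F2 was higher. All 1538 called differences had the same sign in both replicate pairs. The fit that called them pairs these same arrays and so favours such agreement, and the count is a description. In 1475 of the 1538 the H and M arrays did not overlap, as they did not in 44.9% of all probe sets. The replicate 1 differences correlated with the replicate 2 differences across probe sets with r = 0.61, a description over probe sets that share the arrays. The counts depended on the replicate term and on single arrays. Without the replicate block 234 probe sets were called, 145 of them by 2-fold. Without the first H array 303 were called, 200 by 2-fold; without the second, 257 and 163. Leaving out the first or the second G array gave 801 and 794, and leaving out the first M array gave 507 called by 2-fold.

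The distance between the control clones was set beside the other 5 pairs of clones, each tested over the same probe sets. Clones B and G differed in 2 probe sets (0.00900%). Clone H differed from clone B in 490 (2.21%) and from clone G in 255 (1.15%), while clone M differed from clone B in 4445 (20.0%) and from clone G in 3673 (16.5%). The median absolute difference was 0.138 between H and M, 0.0752 between B and G, 0.117 and 0.0940 between H and clones B and G, and 0.182 and 0.163 between M and clones B and G. These pairs share arrays and are not independent. Across probe sets the H minus M differences had r = -0.10 with the B minus G differences, which share no array with them.

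Of the 6 leading genes, GJA1 encodes the gap junction connexin of glia, fibroblasts and muscle. Its signal was 4.79 and 4.57 in clone H and 8.55 and 8.75 in clone M. The H arrays sat with those of the knockdown clones (4.27 to 5.32), and clone M alone was high. The difference was -3.97 (SE 0.26), 15.7-fold (limma adjusted p = 0.000343). VCAN, the large matrix proteoglycan versican, was at 7.43 and 7.07 in clone H and at 10.29 and 11.25 in clone M on its brightest probe set. Both M arrays again lay above all other arrays, and the gene's 5 probe sets gave differences from -3.08 to -4.03. For the brightest the difference was -3.52 (SE 0.46, adjusted p = 0.00504), which did not pass without the first H array (0.0666) or the second (0.0694). MAB21L2, a developmental regulator of eye and body wall, was at 4.86 and 5.29 in clone H and at 9.37 and 9.86 in clone M. The knockdown arrays were at 4.86 to 5.30, so the gene stood out in clone M alone. Its difference was -4.54 (SE 0.21), 23.2-fold (adjusted p = 0.000119), and its second probe set gave -1.59 (adjusted p = 0.000482).

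POU4F2, a homeodomain factor of retinal ganglion and sensory neurons also called BRN3B, went the other way. It was at 10.75 and 9.92 in clone H and at 8.29 and 6.69 in clone M. The M arrays were the 2 lowest of the series and also lay far apart from each other, while the knockdown arrays were at 9.62 to 10.10. The difference was 2.84 (SE 0.34), 7.18-fold (limma adjusted p = 0.00358), and without the first or the second H array the adjusted p was 0.0607 or 0.0506. HTR1E, a serotonin receptor coupled to inhibitory G proteins, was at 9.74 and 9.92 in clone H and at 8.57 and 8.26 in clone M. The knockdown arrays were at 10.18 to 10.28, above both. Its difference of 1.41 (SE 0.12) passed the test (adjusted p = 0.00093).

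HSD17B12, an enzyme of very-long-chain fatty acid elongation, had the largest difference, and in it clone H stood apart. Its signal was 7.09 and 5.50 in clone H, 11.23 and 11.30 in clone M, and 11.12 to 11.42 in the knockdown clones. The H arrays were thus far below the other 6, which lay close together. Clone H was 31.3-fold below clone M (difference -4.97, SE 0.36, limma adjusted p = 0.000482), and clones B and G exceeded clone H by 5.05 and 4.87 while differing from clone M by 0.08 and -0.10 (adjusted p = 0.894 and 0.88).

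**Figure D1:**
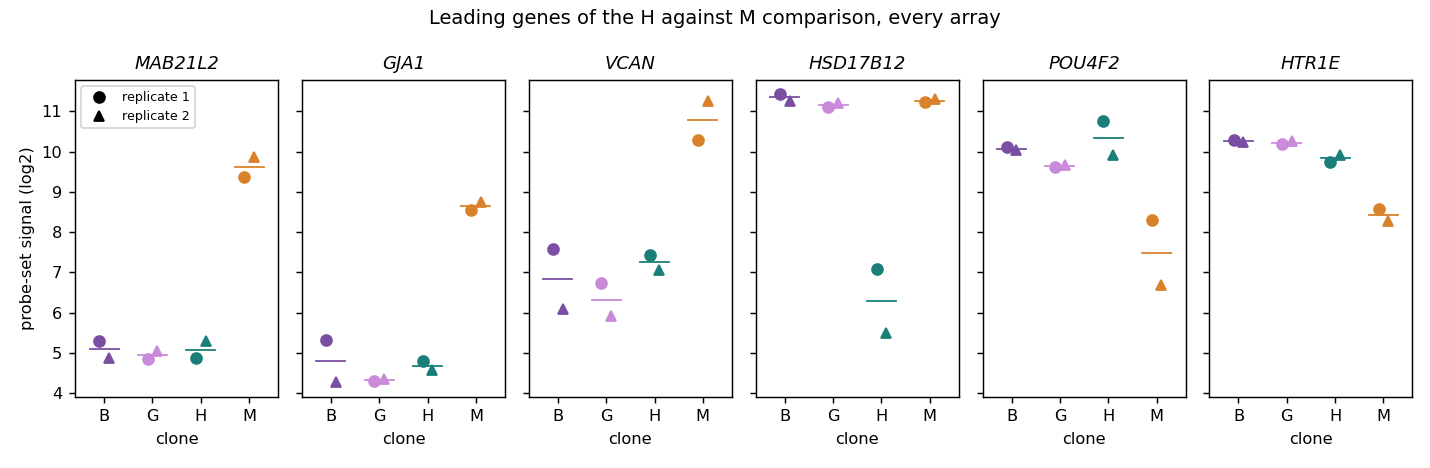
Log2 signal of the 6 leading genes in each of the 8 arrays, by clone; circles are replicate 1, triangles replicate 2 and the line is the clone mean. Clone M is high for MAB21L2, GJA1 and VCAN and low for POU4F2 and HTR1E, and clone H is low for HSD17B12.

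The RefSeq promoters of GJA1 and POU4F2 are shown as one example for each direction, from 250 bases before to 50 after the annotated start, on the plus strand of GRCh38.p14. That of GJA1 lies at chr6:121435396-121435695 and that of POU4F2 at chr4:146638643-146638942. Capitals mark matches to the motifs searched on both strands: the AP-1 element TGANTCA, the TATA element TATAAA and the GC box GGGCGG.
GJA1: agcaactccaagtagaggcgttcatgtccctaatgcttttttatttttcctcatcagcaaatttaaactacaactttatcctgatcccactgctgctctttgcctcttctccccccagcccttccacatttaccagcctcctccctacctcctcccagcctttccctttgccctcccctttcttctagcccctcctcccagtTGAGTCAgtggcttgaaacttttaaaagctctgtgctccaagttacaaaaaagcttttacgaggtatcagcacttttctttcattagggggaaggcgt
POU4F2: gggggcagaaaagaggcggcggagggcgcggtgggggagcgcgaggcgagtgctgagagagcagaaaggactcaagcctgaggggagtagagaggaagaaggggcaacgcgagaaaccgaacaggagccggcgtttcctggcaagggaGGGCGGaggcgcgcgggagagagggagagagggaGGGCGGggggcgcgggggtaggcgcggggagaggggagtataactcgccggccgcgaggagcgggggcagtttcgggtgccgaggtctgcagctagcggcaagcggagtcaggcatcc

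The GJA1 window held 1 AP-1 match, 48 bases before the start, and no match to the others. The POU4F2 window held 2 GC boxes, 102 and 68 bases before the start. Of all 35116 RefSeq promoter windows, 7.71% held an AP-1 match, 11.5% a TATA match and 45.0% a GC box. These windows are of 27305 genes, whether or not the arrays measured them. Of the genes called and at least 2-fold lower in clone H, 133 had windows, 233 in all, with shares of 7.30%, 10.3% and 60.1%. Of those at least 2-fold higher in clone H, 27 had windows, 53 in all, with shares of 9.43%, 9.43% and 47.2%. The called sets hold only measured genes, so the shares are over unlike sets of genes. Several windows can belong to 1 gene, and a match is a run of letters, not a bound site. Promoters of 4 of the 6 leading genes were in the table.

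The 12 largest called differences in each direction are shown by array in the heat map. Among those lower in clone H were further matrix and signalling genes. MGP, a calcification inhibitor of cartilage and vessel wall, was at 7.66 and 6.57 in clone H and at 10.98 and 10.86 in clone M, with the first B array at 9.38 between them. Its difference was -3.80 (limma adjusted p = 0.00346), but 0.0911 without the replicate block. HGF, the ligand of the MET receptor, was at 5.22 and 5.20 in clone H and at 7.95 and 8.82 in clone M. The knockdown arrays lay between, at 5.57 to 6.81, and the difference was -3.17 (adjusted p = 0.000287). RELN, a matrix glycoprotein that positions migrating neurons, was at 8.26 and 8.08 in clone H and at 10.90 and 11.51 in clone M (difference -3.03, adjusted p = 0.0014). The prostaglandin receptor gene PTGER2 (-3.05), the RNA-binding protein gene RBPMS (-3.17), the tyrosine phosphatase gene PTPRE (-3.44), the G protein regulator gene RGS13 (-3.25) and SEL1L3 (-3.65) made up the rest. In each of these 5 genes both M arrays were above all other arrays. The differences of RBPMS, PTGER2, PTPRE, HGF, RELN and SEL1L3 passed also without either H array, whereas those of MGP and RGS13 did not (adjusted p = 0.0537 to 0.083).

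The 12 largest differences higher in clone H ran from 1.19 to 2.84, and those lower in clone H from -4.97 to -3.03. Of the 12 higher genes 6 were on neuronal lists: POU4F2, HTR1E, KCNK3, GRIA2, SV2C and KCNAB1. Of the 12 lower genes GJA1, VCAN and MGP were on mesenchymal lists and MAB21L2 was on a neuronal one. KCNK3, a leak potassium channel that sets the resting potential, was at 9.11 and 8.77 in clone H and at 7.95 and 6.63 in clone M (difference 1.65, limma adjusted p = 0.0133). GRIA2, the AMPA receptor subunit that limits calcium entry, was at 9.01 and 8.90 in clone H and at 7.90 and 7.62 in clone M (difference 1.19, adjusted p = 0.00309). PTPRN, a protein of dense-core vesicles, was at 9.51 and 9.78 against 8.52 and 8.18 (difference 1.29, adjusted p = 0.0038). In all 3 genes clone M was lowest in the series. ZNF804A (1.75), SEZ6L (1.31), the synaptic vesicle protein gene SV2C (1.24), the potassium channel subunit gene KCNAB1 (1.19), the flippase gene ATP8B1 (1.21), the cholesterol exporter gene ABCG1 (1.36) and GNAS (1.33) completed the 12. The adjusted p was above 0.05 without the replicate block for ZNF804A (0.251), KCNK3 (0.108), SEZ6L (0.0582), SV2C (0.162), KCNAB1 (0.503), ATP8B1 (0.112) and GNAS (0.0632). Without the first or the second H array, of the 12 only ABCG1, HTR1E and GNAS passed both times. In ZNF804A and KCNAB1 the replicate 2 arrays were higher than the replicate 1 arrays in every clone. GNAS, the stimulatory G protein gene, rests on 1 probe set: it was at 9.02 and 9.42 in clone H, 7.71 and 8.06 in clone M and 11.33 to 11.99 in the knockdown clones. The gene's brightest probe set was at 14.42 to 14.68 in all 8 arrays, with a difference of 0.06 (adjusted p = 0.674).

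**Figure D2:**
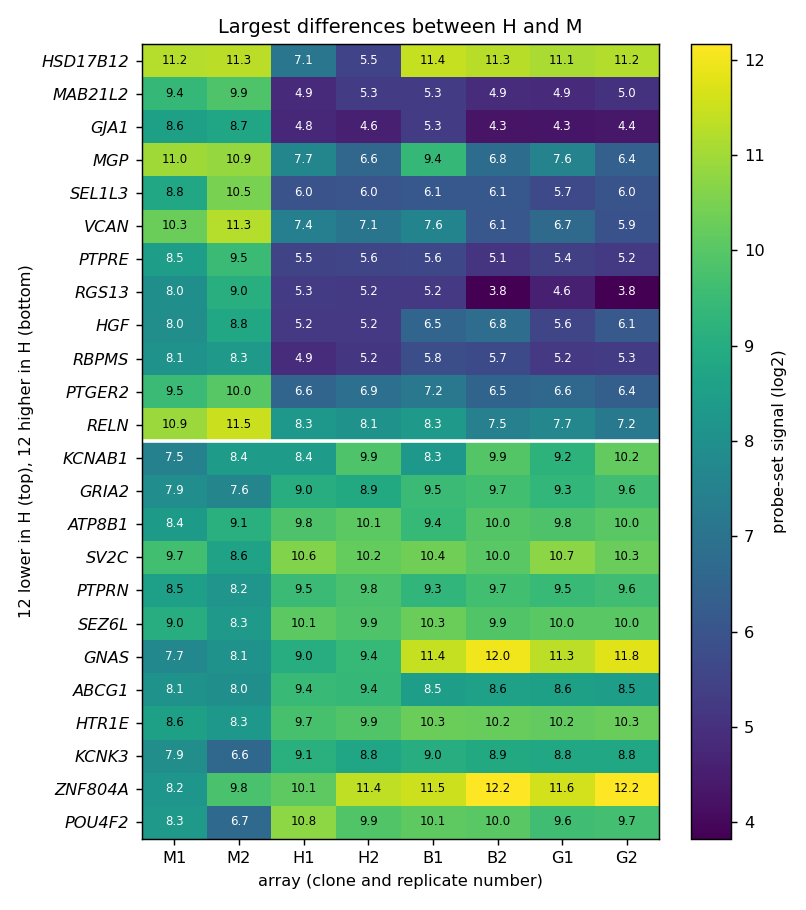
Log2 signal in each array, M1 to G2, of the 12 largest called differences lower in clone H (top) and the 12 higher in clone H (bottom), with the value written in each cell. In the upper block clone M is the bright one for every gene but HSD17B12, and in the lower block clone M has the lowest mean.

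Gene lists were then described by how many measured members were called, beside the share over all 11963 genes with 1 probe set each: 393 (3.29%) higher in clone H and 467 (3.90%) lower, with a median difference of 0.01 and 52.4% of differences positive. The lists were 31 with 781 measured genes. The TGF-beta, YAP, Notch, Wnt and junction lists were counted as mesenchymal. Not all of their members are markers of the mesenchymal state. Of 288 genes on the neuronal lists, 45 were higher in clone H and 12 lower. Of 300 genes on the mesenchymal lists, 4 were higher and 60 lower. These are 15.6% and 4.17% of the neuronal genes and 1.33% and 20.0% of the mesenchymal genes. Of the 288 neuronal differences 162 were positive, with a median of 0.05. Of the 300 mesenchymal differences 84 were positive, with a median of -0.17. Without the replicate block, 3.82% of the neuronal genes were higher and 1.74% lower, and 6.67% of the mesenchymal genes were lower, against 0.242% higher and 0.928% lower of all genes. Without the first H array the neuronal counts were 15 and 5 and the mesenchymal counts 1 and 20, against 0.493% and 1.04% of all genes. Without the second H array they were 9 and 4, and 1 and 16, against 0.318% and 0.894%. Without the first M array they were 57 and 26, and 6 and 91, against 4.87% and 5.65%. In these 4 fits the share of neuronal genes called lower, 1.39% to 9.03%, was also above that of all genes, so the share called was the higher one in both directions. Since the lists were drawn up with earlier results of these data known, the counts are descriptions.

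Synaptic vesicle and release genes were higher in clone H for 12 of 27 members and lower for none, with a median difference of 0.45 (0.46 within replicate 1 and 0.51 within replicate 2). SNAP25, a core fusion protein, was at 12.06 and 11.998 in clone H and at 11.29 and 11.26 in clone M. Those arrays did not overlap, and the knockdown arrays were at 11.93 to 12.13 with clone H. The difference was 0.75 (SE 0.07, limma adjusted p = 0.0013). SYN1, which tethers vesicles, was at 9.35 and 9.19 against 8.56 and 8.25 (difference 0.87, adjusted p = 0.00371). The others called were the fusion genes STX1A (0.55), VAMP2 (0.65) and SYT5 (0.91), the endocytosis genes DNM1 (0.80) and SNAP91 (0.89), the active zone genes BSN (0.75), PCLO (0.76) and RIMS2 (0.43), and RPH3A (0.68) and SV2C. SYT1, the main calcium sensor of release, was at 11.61 and 11.11 against 11.11 and 11.09 and did not pass the test (adjusted p = 0.21). Only SNAP25 and SYN1 passed without the replicate block. The count was 3 without the first H array and 1 without the second.

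Genes of the neuronal cytoskeleton were higher in clone H for 9 of 30 and lower for 1, with a median of 0.27. INA, the neurofilament protein internexin, was at 11.93 and 11.92 in clone H, 11.20 and 10.95 in clone M and 11.19 to 11.36 in the knockdown clones. Both H arrays were above the other 6 (difference 0.85, limma adjusted p = 0.00148). CRMP1 and KIF5C, which act in axon growth and transport, differed by 0.65 and 0.61 (adjusted p = 0.00295 and 0.00347). The microtubule genes MAPT (0.58) and STMN4 (1.18), the neurofilament gene NEFL (0.69) and the growth cone gene GAP43 (0.89) were also called. DPYSL3, a further member of the CRMP family, was the exception. It was at 11.61 and 12.42 in clone H, 12.56 and 13.62 in clone M and 10.52 to 11.27 in the knockdown clones, with a difference of -1.07 (adjusted p = 0.00287). Clone H lay between clone M and the knockdown clones. TUBB3, the neuronal tubulin, did not pass the test (0.03, adjusted p = 0.762), and neither did STMN2 (0.11, adjusted p = 0.549). INA and CRMP1 were the 2 called higher without the replicate block, 4 were without the first H array and 3 without the second.

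Adhesion molecules of the nervous system had 8 of 31 genes higher in clone H and 2 lower, with a median of 0.03 that was -0.07 without the first H array. L1CAM, an axonal adhesion protein, was at 11.33 in both H arrays and at 10.35 and 10.14 in clone M (difference 1.08, SE 0.10, limma adjusted p = 0.00135). NRXN2, a presynaptic neurexin, was at 8.66 and 8.49 against 7.62 and 7.15 (difference 1.19, adjusted p = 0.00495). Neurofascin, NFASC, differed by 1.24 (adjusted p = 0.00371), and CNTN1 (1.004), CNTNAP2 (1.15), NCAM1 (0.61), CADM1 (0.53) and NLGN4X (0.66) were also higher. NLGN1, a postsynaptic neuroligin, was at 4.68 and 4.22 in clone H and at 6.04 and 6.58 in clone M, a difference of -1.86 (adjusted p = 0.00336). At the H level of NLGN1 signal and background cannot be separated. CDH2, or N-cadherin, was the other lower gene (-0.58, adjusted p = 0.00564). The counts were 2 higher and 1 lower with no replicate block, 3 and 1 without the first H array, and 2 and 0 without the second.

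Of 23 factors of sympathetic neuroblasts 1 was higher in clone H, SIX3 (0.43, limma adjusted p = 0.0399), and 1 lower, SOX11 (-0.52, adjusted p = 0.0455), and the median was 0.09. Neither was called without the replicate block (adjusted p = 0.64 and 0.393) or without either H array. An unadjusted limma p under 0.05 was seen for 8 of the 23, and for 2840 of all 11963 genes. LMO1 and TFAP2B both differed by 0.43 and did not pass the test (adjusted p = 0.0548 and 0.0642) in the fit of all arrays; LMO1 did without the first M array (0.00735) and TFAP2B without the second (0.000634). HAND2 differed by 0.14, GATA2 by 0.16, GATA3 by 0.12, ISL1 by 0.16 and PHOX2A by 0.17, none past the test (adjusted p = 0.217 to 0.42). Of 21 sensory, retinal and proneural factors 1 was higher, POU4F2, and 2 were lower, MAB21L2 and the retinal homeobox gene RAX (-0.52, adjusted p = 0.0414, and 0.17 without the replicate block), with a median of -0.06. DBH, which makes noradrenaline, was at 13.41 and 13.58 in clone H and at 12.80 and 12.79 in clone M (difference 0.70, adjusted p = 0.00209). The knockdown arrays were at 13.42 to 13.63, on the side of clone H. DBH and ALDH2 (0.41, adjusted p = 0.0437) were the 2 called of 16 catecholamine genes, and without the replicate block DBH alone was. TH, the rate-limiting enzyme, was dim in all arrays (5.87 to 6.19) and did not pass the test (adjusted p = 0.807). Among 25 neuropeptide and granin genes 3 were higher, the granins CHGA (0.77) and SCG3 (0.80) and the peptide VIP (0.999), and none lower; at an unadjusted p under 0.05 there were 7 either way. VIP was at 9.79 and 7.81 in clone H and at 8.58 and 7.02 in clone M, so the difference between replicates exceeded that between clones and the groups overlapped. None of the 3 was called without the replicate block (adjusted p = 0.403 for CHGA, 0.0844 for SCG3 and 0.766 for VIP) or without the second H array, and 1 was without the first. NPY, the peptide of sympathetic neurons, was at 12.81 and 12.18 against 12.92 and 12.09 (adjusted p = 0.985).

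Receptors and channels held called genes in both directions. The list medians were -0.02 for neurotransmitter receptors, 0.01 for channels and -0.17 for axon guidance genes. Of 46 neurotransmitter receptors 4 were higher in clone H, HTR1E, GRIA2, GRIK2 (0.97) and the dopamine receptor DRD2 (0.62), and 3 lower. HTR2B, a serotonin receptor coupled to calcium release, was at 6.54 and 5.59 in clone H and at 8.15 and 6.77 in clone M (difference -1.39, limma adjusted p = 0.00638, and 0.289 without the replicate block). ADRA2A, the inhibitory adrenergic receptor, differed by -0.80 (adjusted p = 0.00469). Of 33 channels 4 were higher and 1 lower. The lower one was SCN9A, the sodium channel of peripheral sensory and sympathetic neurons, at 6.32 and 6.90 in clone H and 8.68 and 9.60 in clone M. Its difference of -2.53 (adjusted p = 0.000864) ran opposite to SCN3B (1.19, adjusted p = 0.00523) and SCN2A (0.64, adjusted p = 0.0194), a sodium channel subunit and a central sodium channel. Guidance genes had 1 of 36 higher, SLIT1 (0.51), and 2 lower, the secreted semaphorins SEMA3A (-1.80, adjusted p = 0.0033) and SEMA3C (-1.59, adjusted p = 0.0491, and 0.359 without the replicate block). With no replicate block 2 receptors and 1 channel were called higher, and 1 receptor, 1 channel and 1 guidance gene lower. Without either H array no receptor was called lower, HTR2B and ADRA2A included, and SCN9A and SEMA3A were the channel and guidance genes still called lower.

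Genes that mark the mesenchymal state of neuroblastoma were lower in clone H for 8 of 29 and higher for none. Their median was -0.35, 27 of the 29 differences were negative, and the median was -0.23 within replicate 1 and -0.46 within replicate 2. VIM, the intermediate filament vimentin, was at 13.14 and 12.41 in clone H and at 13.99 and 13.94 in clone M. The knockdown arrays were at 12.07 to 12.64 and overlapped clone H. Its difference was -1.19 (SE 0.13, limma adjusted p = 0.00274), and the adjusted p was 0.105 without the replicate block. ANXA2, a membrane-binding annexin, was at 11.92 and 11.45 in clone H and at 12.98 and 12.78 in clone M (difference -1.19, adjusted p = 0.000913). FN1, or fibronectin, was at 8.37 and 7.32 against 9.80 and 9.80 on its brightest probe set (difference -1.95, adjusted p = 0.0105). LGALS1 (-0.98), IGFBP6 (-0.87), TIMP1 (-0.92), LOX (-0.90) and CCN1 (-0.73) were the others. TIMP1 was higher in clone G (9.28 and 9.34) than in clone M (7.91 and 7.92). CD44, AXL, SPARC and IGFBP7 did not pass the test (differences -0.12, -0.29, -0.72 and -0.16, adjusted p = 0.0807 to 0.509). Without the replicate block 4 members were called lower, as without the first H array, and 3 without the second; without the first M array 13 were.

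Transcription regulators of that state were lower in clone H for 6 of 32 and higher for none. SOX9, a factor of neural crest and cartilage, was at 5.95 and 5.93 in clone H and at 8.74 in both M arrays. The 6 arrays outside clone M were at 5.44 to 6.17. The difference was -2.80 (SE 0.19, limma adjusted p = 0.000428). YAP1, the transcriptional effector of the Hippo pathway, was at 4.08 and 4.17 against 5.68 and 5.83 (difference -1.63, adjusted p = 0.000343). At the H level of YAP1 signal and background cannot be separated. SNAI2, also called SLUG, a repressor of epithelial genes, was at 8.50 and 6.23 in clone H and at 9.66 and 8.28 in clone M. Its replicate 1 signal was the higher one in every clone, so the groups overlapped, and its difference of -1.60 (adjusted p = 0.00416) rested on the pairing (0.562 without the replicate block). TCF7L2 (-1.35), SMAD3 (-0.88) and EGR3 (-0.58) were also lower. TWIST1, PRRX1, RUNX2, ZEB1 and WWTR1, further factors of mesenchymal cells, did not pass (differences -0.12 to 0.26, adjusted p = 0.175 to 0.901). Without the replicate block or without the first H array 3 were called, and without the second H array 2.

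Of 37 proteoglycans and matrix glycoproteins 11 were lower in clone H and none higher, with a median of -0.21. Beside VCAN and MGP these included the small proteoglycans DCN (-1.75) and LUM (-2.87), the microfibril gene FBN1 (-2.04) and the basement membrane gene NID2 (-1.46). FBN1 was at 8.80 and 8.42 in clone H and at 10.07 and 11.23 in clone M, and DCN at 7.73 and 7.75 against 8.77 and 10.20. In both the second M array was the highest of the series, well above the first. SPOCK1, a testican, was at 7.25 and 7.98 in clone H and at 8.66 and 9.47 in clone M (difference -1.45, limma adjusted p = 0.000689). GPC3 (-1.09) and TNC (-1.24) were called as well. Of 29 collagen and laminin chains 4 were lower and none higher. The fibrillar chains COL3A1 and COL5A1 were at 7.04 and 6.34 and at 7.09 and 6.94 in clone H, against 9.21 and 10.02 and 8.81 and 9.24 in clone M. Their differences were -2.93 (adjusted p = 0.0141) and -2.01 (adjusted p = 0.00125). COL4A1 (-0.91) and COL6A3 (-0.54) were the other called chains. On their brightest probe sets COL1A1 (-0.38, adjusted p = 0.0821) and COL1A2 (0.13, adjusted p = 0.64) did not pass. Another of the 4 probe sets of COL1A1 was called, with a difference of -1.89. In the fit with no replicate block 3 of the glycoproteins and 1 chain were called, as without either H array.

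Of 29 integrin and focal adhesion genes 4 were lower in clone H and 1, LPP (0.46), higher. ITGB5, a vitronectin receptor subunit, was at 8.62 and 8.75 in clone H and at 10.26 and 10.32 in clone M (difference -1.60, SE 0.11, limma adjusted p = 0.000482). ITGA6, a laminin receptor subunit, differed by -1.47 (adjusted p = 0.00372), ITGA2, a collagen receptor subunit, by -0.81 (adjusted p = 0.00469) and ITGA4 by -0.86 (adjusted p = 0.0047). ITGB1, the common beta chain, was at 13.04 and 13.09 against 13.26 and 13.43 and did not pass (adjusted p = 0.14). Of 26 actomyosin genes 4 were lower and none higher: TPM1 (-1.23), CSRP2 (-1.71), CSRP1 (-0.49) and MYLK (-0.68). ACTA2, the smooth muscle actin, was at 8.80 and 8.73 in clone H and at 9.03 and 10.19 in clone M (adjusted p = 0.0979). Of 26 junction genes 2 were lower, GJA1 and the alpha-catenin gene CTNNA1 (-0.54), and 1 higher, the neural alpha-catenin gene CTNNA2 (0.64). The lower genes numbered 3, 1 and 1 in these lists with no replicate block; without the second H array 2, 2 and 1; and without the first M array 12, 10 and 5. LPP was not called with no replicate block, and neither was CTNNA2.

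In the TGF-beta and BMP pathway 10 of 33 genes were lower in clone H and 1 higher. TGFBR2, the type II TGF-beta receptor, was at 5.91 and 5.84 in clone H and at 7.92 and 8.08 in clone M. No other array exceeded 5.94, and the difference was -2.13 (SE 0.12, limma adjusted p = 0.000237). The ligand genes INHBA (-0.95) and BMP2 (-0.60), the ligand-binding LTBP1 (-0.83), the receptor ACVR1 (-0.44), the signal transducers SMAD1 (-0.55) and SMAD3, and the inhibitors SMAD6 (-1.01), BAMBI (-1.06) and TGIF1 (-1.61) were the rest. The higher gene was ACVR2B, an activin receptor, at 10.50 and 10.36 against 9.82 and 9.60 (difference 0.72, adjusted p = 0.00292). Of these 11 genes TGFBR2 and ACVR2B alone were called without the replicate block, and both passed also without either H array. Of 26 genes linked to YAP and AP-1, 6 were lower, among them CCN1, HBEGF (-0.69), PTPN14 (-0.79) and DLC1 (-0.93). CCN1, a secreted YAP target, was at 6.39 and 5.72 in clone H and at 8.61 and 8.76 in clone M on its second probe set, where the difference was -2.63 (adjusted p = 0.000864). CCN2, a further such target, was at 3.98 to 4.11 in both clones (adjusted p = 0.917). Signal and background cannot be separated at that level, so a difference in CCN2 could not be read. Of the 26, 2 were called with no replicate block and none without the second H array.

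Notch and Wnt genes gave smaller counts. NOTCH3 (-1.14, limma adjusted p = 0.0175) and NOTCH1 (-0.74, adjusted p = 0.0364) were lower in clone H and RFNG, a modifier of Notch receptors, was higher (0.55), of 18 measured. NOTCH2 was at 10.70 and 9.72 in clone H and at 11.34 and 11.24 in clone M and did not pass (adjusted p = 0.0631). None of the 18 was called with no replicate block or without either H array. Of 28 Wnt genes 5 were lower and none higher. The Wnt inhibitor DKK2 was at 8.52 and 7.30 in clone H, 10.49 and 11.24 in clone M and 4.68 to 6.22 in the knockdown clones. Clone H lay between, nearer the knockdown clones than clone M on average (difference -2.96, adjusted p = 0.00572). DKK1 (-0.31), SFRP1 (-1.51), FZD2 (-0.45) and WNT5A (-0.86) were the other called genes, and without the second H array none was.

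Marker lists of other cell types were read in the same way. Of 20 fibroblast and smooth muscle markers 6 were lower in clone H and none higher, with a median of -0.35. Of these 20, 16 were also on other lists, and the 6 were COL3A1, COL6A3, DCN, LUM, FAP and FBN1. The mean level of the list was 7.58 and 7.48 in clone H and 8.11 and 8.38 in clone M. The surface markers of fibroblasts and pericytes, PDGFRB (-0.12, limma adjusted p = 0.608) and THY1 (-0.15, adjusted p = 0.389), did not pass, and PDGFRA was at 10.34 and 9.85 against 11.15 and 11.28 (adjusted p = 0.232). None of the 20 was called with no replicate block or without the second H array, and 1 was without the first. The part of such cells in the result was not tested. No member of the leukocyte (18), epithelial (15) or endothelial (14) lists was called by limma. An unadjusted p under 0.05 was seen for 3, 1 and 3 of them, against 2840 of all 11963 genes. The lists had mean levels of 6.55 and 6.59, 6.28 and 6.30, and 6.07 and 6.09 in clone H. In clone M these were 6.62 and 6.64, 6.30 and 6.42, and 6.04 and 6.07. Of 15 Schwann and melanocytic markers L1CAM was higher and MITF, the melanocyte factor, lower (-0.85, adjusted p = 0.00564, and 0.0702 without the second H array); SOX10, the factor of Schwann cells, did not pass (-0.17, adjusted p = 0.48).

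**Figure D3:**
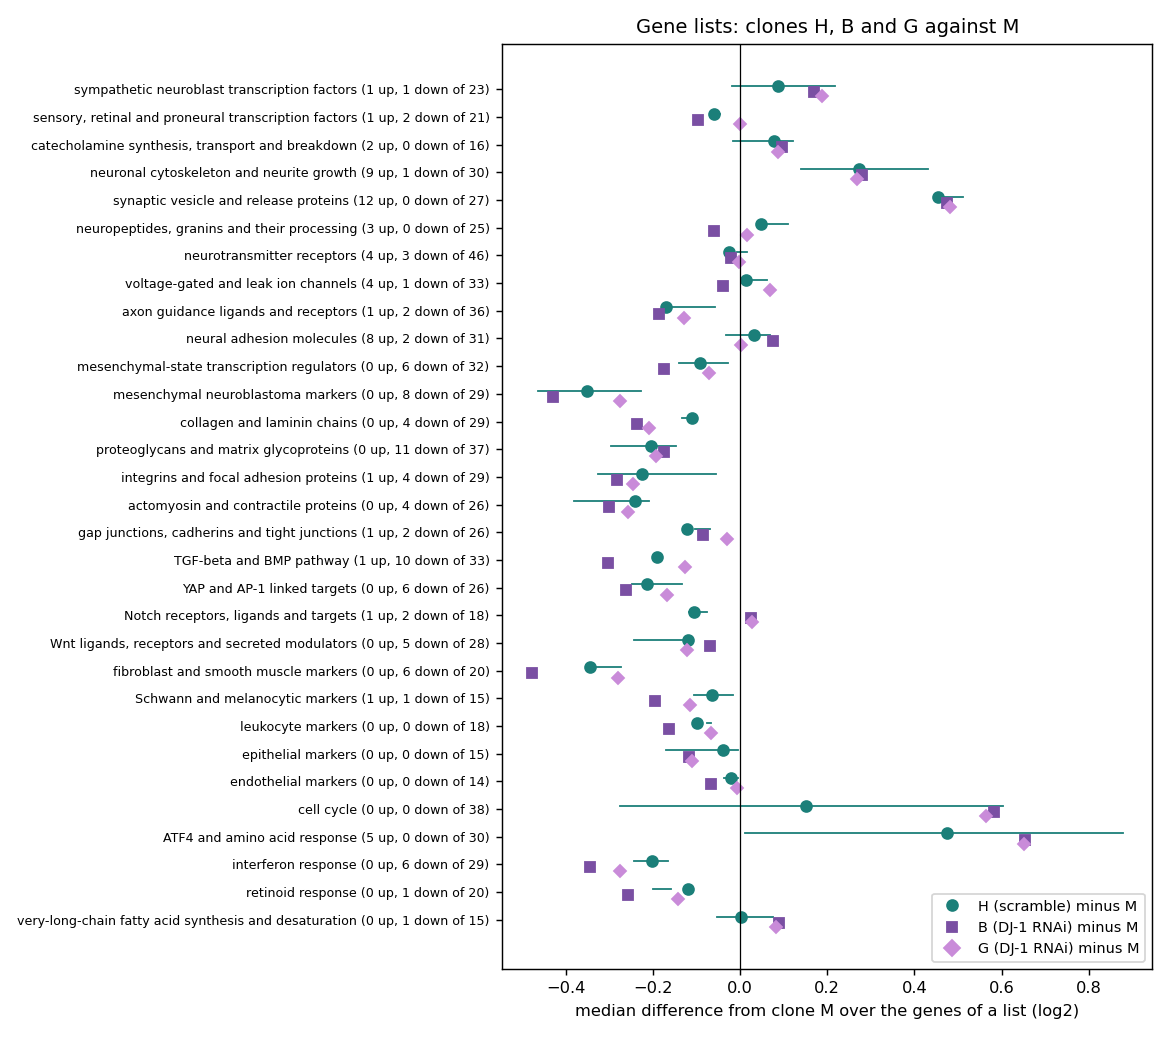
Median difference of each gene list on the log2 scale: dots are H minus M, with a thin line joining the medians within replicates 1 and 2, squares are B minus M and diamonds G minus M, all against the same M arrays; the numbers are genes called higher and lower in H. The synaptic vesicle list sits at 0.45 and the mesenchymal neuroblastoma list at -0.35, while the line of the cell cycle list spans zero, from -0.28 to 0.60.

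Lists of cell state gave less even values. By limma none of 38 cell cycle genes was called. An unadjusted p under 0.05 was seen for 2, against 2840 of all 11963 genes. The list median was 0.15, but it was -0.28 within replicate 1 and 0.60 within replicate 2, so the pairs of arrays disagreed in sign. The list median also changed sign without the second H array (-0.11) and without the second M array (-0.17). MKI67, the proliferation marker, was at 10.14 and 9.78 in clone H and at 10.45 and 8.70 in clone M. In the ATF4 and amino acid response 5 of 30 genes were higher in clone H and none lower. The median of 0.47 came from 0.01 within replicate 1 and 0.88 within replicate 2, and 17 genes were called without the first M array. DDIT3, or CHOP, was at 10.13 and 11.12 in clone H and at 9.05 and 9.88 in clone M, with both replicate pairs in the same direction (difference 1.16, adjusted p = 0.00225). VEGFA (0.88), VLDLR (0.88), STC2 (1.13) and CBS (0.51) were the other called genes, and none of the 5 was called without the replicate block.

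Interferon response genes were lower in clone H for 6 of 29 and higher for none. PSMB8, an immunoproteasome subunit, was at 5.78 and 5.34 in clone H and at 7.06 and 7.61 in clone M (difference -1.77, limma adjusted p = 0.00291). IFI44 (-1.30, adjusted p = 0.00185), HLA-C (-1.35, adjusted p = 0.0149), B2M (-0.80, adjusted p = 0.0295), IFIT1 (-0.77) and BST2 (-0.52) were the others. The knockdown arrays lay with clone H for PSMB8, at 5.55 to 5.73. Without the replicate block, or without either H array, 2 of the list were called. Of 20 retinoid genes ALDH1A3, which makes retinoic acid, was lower (-0.90, adjusted p = 0.00617). It was not called without the replicate block (0.189) or without the first or second H array (0.0668 and 0.0692), and no other retinoid gene was. Of 15 genes of very-long-chain fatty acid synthesis HSD17B12 alone was called.

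Clones B and G were then placed on the H to M axis. For each probe set the position was (clone minus M) / (H minus M), so that 0 is the level of clone M and 1 that of clone H. Over the 1538 called probe sets the median position was 1.01 for clone B and 1.03 for clone G. Clone B was nearer H in 1392 (90.5%) and clone G in 1424 (92.6%), against 66.8% and 68.4% of all 22215 probe sets. Both were nearer H in 1370 and both nearer M in 92, against 12748 and 4939 of all 22215 probe sets. Among the 265 probe sets at least 2-fold lower in clone H, the median levels were 8.72 in clone M, 6.997 in clone H, 6.97 in clone B and 6.88 in clone G. Among the 47 at least 2-fold higher, they were 7.85, 9.03, 9.10 and 9.27. Clones H and M chose these probe sets and enter the position, so the placing is a description. In the fit, clone B differed from clone M in the direction of clone H in 1259 of the 1538, and from clone H in 93. Clone G did so in 1300 and 63. Over all 22215 probe sets the counts were 4178 and 490 for clone B and 3506 and 255 for clone G. These comparisons share arrays, and the 1538 were chosen by a difference from the same M arrays.

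**Figure D4:**
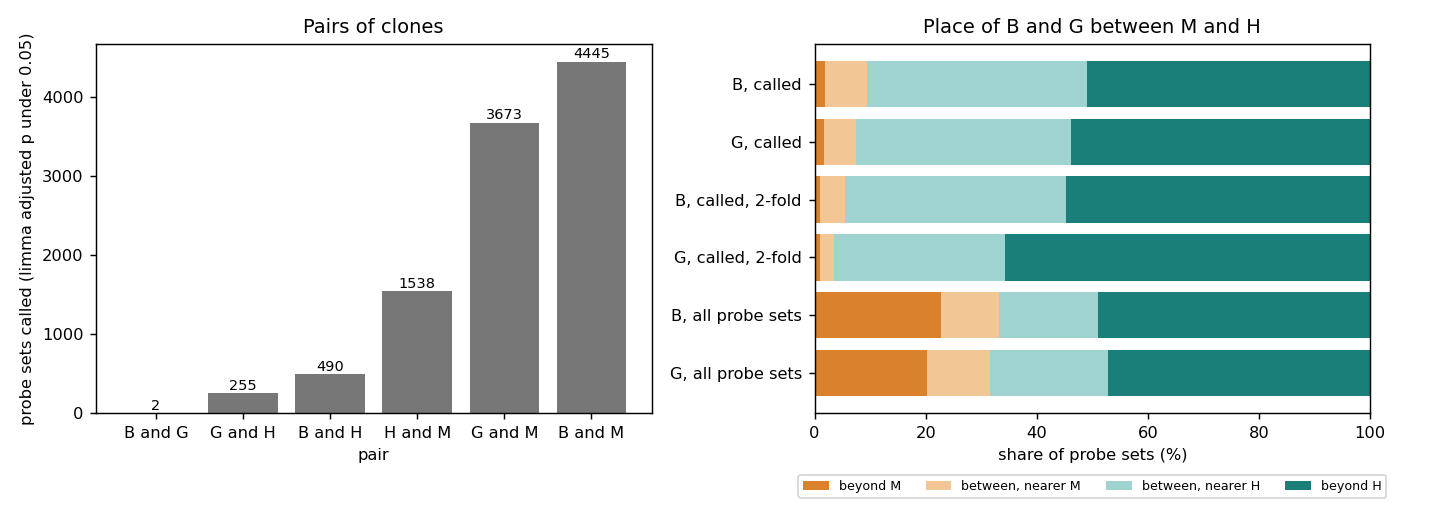
Left, probe sets called in each of the 6 pairs of clones at an adjusted p of 0.05. Right, percent of probe sets with clone B or clone G beyond M, between and nearer M, between and nearer H, or beyond H, for called, called 2-fold and all probe sets; B and G are nearer H in 90.5% and 92.6% of those called.

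In a few genes clone H, not clone M, was the one apart from the knockdown clones. Among called genes of at least 2-fold, 8 had both knockdown clones nearer M, and they were picked by that position after their values were seen. HSD17B12 was the most extreme. GAS1, a growth arrest protein of the cell surface, was at 7.44 and 7.35 in clone H, 8.63 and 8.82 in clone M and 8.19 to 8.90 in the knockdown clones. Clone H was below the other 6 arrays (difference -1.33, limma adjusted p = 0.00743). NRP1, the semaphorin and VEGF coreceptor neuropilin, was at 4.39 and 4.65 in clone H against 5.38 to 7.08 elsewhere on the probe set concerned. Signal and background cannot be separated at that H level. On the gene's brightest probe set the difference was -0.63 and did not pass the test (limma adjusted p = 0.0516). GALNT6, a mucin glycosyltransferase, was at 6.59 and 6.79 in clone H against 7.42 to 8.60 elsewhere. ABCG1 went up, at 9.43 and 9.38 in clone H against 7.99 to 8.61 elsewhere. For HRK (-1.70), SLC47A1 (-1.20) and AKAP9 (1.05) the knockdown clone means lay between the control clones. At 2-fold 1 probe set was called of the 2 each of GAS1 and ABCG1 and of the 3 each of NRP1, HRK and AKAP9. The brightest probe set of AKAP9 was not called. Without the replicate block HSD17B12, GALNT6 and ABCG1 were called, whereas GAS1 (limma adjusted p = 0.0536), NRP1 (0.19), HRK (0.212), SLC47A1 (0.105) and AKAP9 (0.112) were not. GAS1, GALNT6 and HRK did not pass without either H array, with adjusted p values of 0.057 to 0.14, and NRP1 (0.0654) and AKAP9 (0.1) did not without the first.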

How the data were processed

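Each of the 8 arrays had a deposited column of log2 values for 22277 probe sets; the authors used GCOS and RMA, per the submitters' processing notes. Their versions are not given in the sources used here, and the log scale was read from the values. RMA gives all arrays one intensity distribution, so a shift shared by most genes would be lost. Without detection calls a low signal cannot be separated from background, and the number of arrays limits the precision. The 62 control probe sets were left out. Of the 22215 tested, 19064 had 1 gene in the platform annotation, 1043 several and 2108 none, and 19052 were matched to RefSeq symbols; promoters are RefSeq's, from GRCh38.p14. The H minus M contrast came from limma 3.58.1 (R 4.3.3), by lmFit and trended eBayes, with 1 mean per clone and the replicate number as a block over all 8 arrays (3 residual degrees of freedom), two-sided, with Benjamini-Hochberg adjustment over all probe sets. The titles give the replicate numbers. Arrays of one number deviated together from the means of their clones in all 6 clone pairs, with r between 0.42 (H and M) and 0.78 (B and G). In the lists and the runs of neighbours a gene stands for its probe set with the highest mean. Among the 12 largest differences each way it stands for the brightest probe set that qualified. The genes apart in clone H are given by their called probe set of 2-fold or more. Named were PARK7, the 6 leading genes, the 12 largest non-overlapping differences each way among called probe sets whose brighter clone was at or above the median level, and the members with the lowest p of each list, at most 4; other list members are named for their role. The members and lists were chosen with earlier results of these data known. Seen values also led to the genes apart in clone H, those of the closing section, the probe sets that differ within a gene and the runs of neighbours. On simulated data for H minus M over 22215 probe sets, 74% of differences of 1 and 96% of differences of 2 on the log2 scale were recovered, with 7 false calls. The simulated replicate shift was the same in every clone and the noise was independent. The simulation therefore does not test the reliance on the replicate block. Alternatives were no replicate block, the H and M arrays only, no trend, quantile normalization, median centring, a filter on low values, another probe set per gene, called probe sets of 2-fold or more for the placing, and leaving out each array.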

Additional observations from a re-analysis of the deposited data

How the results depend on the processing

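The replicate block decided most calls: without it 234 probe sets were called between H and M, 145 of them by 2-fold, with 11 neuronal genes higher and 5 lower, 1 mesenchymal gene higher and 20 lower, and clones B and G nearer H in 96.2% of the called probe sets. With only the H and M arrays 870 were called, and clone G was nearer H in 93.7%. Of the mesenchymal genes 2 (0.667%) were higher in that fit, against 1.26% of all genes. With the filter on low values 922 were called, 117 by 2-fold, with 3 neuronal and 22 mesenchymal genes lower and clone G nearer H in 92.3%. That filter tests only probe sets at or above the median level. Fewer members were thus tested, and its counts cannot be set beside those of the main fit. Clone G was nearer H in 93.2% with median centring, 93.7% without a trend and 93.0% with quantile normalization, and among called probe sets of 2-fold or more clones B and G were nearer H in 94.6% and 96.5%. Leaving out each array in turn gave 257 to 2150 called, 163 to 507 by 2-fold, 9 to 57 neuronal genes higher and 4 to 26 lower, 1 to 6 mesenchymal genes higher and 16 to 91 lower, and clones B and G nearer H in 81.8% to 94.1% and 89.9% to 94.8%. An array left out leaves its clone 1 array, assumed to vary like the other clones. Of the 107 called probe sets among the 141 named, 54 were called without the replicate block, 95 with only the H and M arrays, 57 and 44 without the first or second H array and 103 and 99 without the first or second M array; no named call changed sign in any of these. List medians changed sign for 5 of 30 lists with the filter on low values, which leaves fewer members: neurotransmitter receptors from -0.02 to 0.41, Schwann and melanocytic markers from -0.06 to 0.46, endothelial markers from -0.02 to 0.34 and axon guidance from -0.17 to 0.03 were 4 of them. They did so for 2 and 4 of 31 with median centring and quantile normalization, among them the receptors (to 0.01 in both), and for 1 to 5 of 31 without an H or M array.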

Other observations

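Several genes outside the lists were among those more than 4-fold lower in clone H, and were picked after their values were seen. S100A11, a calcium-binding partner of annexins, was at 7.30 and 7.10 in clone H, 10.22 and 10.21 in clone M and 7.12 to 7.84 in the knockdown clones (difference -3.02, limma adjusted p = 0.000237). S100A10, the partner of ANXA2, was at 6.73 and 6.77 in clone H and at 8.96 and 8.89 in clone M (difference -2.18, adjusted p = 0.000237). PTN, the growth factor pleiotrophin, was at 9.92 and 9.52 against 12.05 and 12.46 on its brightest probe set (difference -2.53, adjusted p = 0.0226), with an adjusted p of 0.157 without the replicate block. The dimmest of its 4 probe sets, at 6.38 to 6.61 in the control clones, gave 0.15. IFITM2, an interferon-induced membrane protein, was at 7.80 and 7.83 in clone H and 10.07 and 10.90 in clone M (difference -2.67, adjusted p = 0.000489). In each of these 4 genes both M arrays were above all 6 others.

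Called genes that are neighbours in the RefSeq gene order, with 1 probe set per gene, formed runs of at most 4. The longest was RSU1, CUBN, TRDMT1 and VIM, all lower in clone H (-1.19 to -0.50). Runs of 3 lower genes were ARL6IP5, FRMD4B and MITF, GNG12, DIRAS3 and WLS, and PHACTR2, PLAGL1 and HYMAI, and runs of 3 higher genes were BCLAF1, MAP7 and MAP3K5, and CHGA, ITPK1 and MOAP1. No chance level was computed for such runs. Of 108 genes with several probe sets and one called at 2-fold, 5 also had a probe set at or above the median level with a difference under 0.25: ELAVL1, GNAS, MED18, RUFY3 and SYNJ2.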
